A study of Mus musculus with 6 samples.

Results

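Peaks of open chromatin that were listed in both libraries of the Alkbh5 del-cIDR allele, and in no library of the other genotypes, were described on the mouse autosomes. The regions were chosen by the calls themselves. Peaks from the 6 lists were joined wherever they shared 1 bp or more, and a joined region on chromosomes 1 to 19 was kept when both del-cIDR lists and no KO or WT list had a peak in it. This gave 1108 regions out of 253594 merged autosomal regions and 259376 mouse regions in all. They are 0.437% of the autosomal regions and 0.901% of the 122967 autosomal regions that both del-cIDR libraries had.

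The cells were E14TG2a mouse embryonic stem cells of 3 genotypes with 2 libraries each. The del-cIDR cells carry an Alkbh5 allele without the stretch called cIDR, where the series title uses IDR for intrinsically disordered region; KO denotes the Alkbh5 knockout, and WT the unmodified gene. All were grown in serum medium with LIF, the MEK inhibitor PD0325901 and the GSK3 inhibitor CHIR99021, and all received spike-in nuclei before the reaction. The labels do not say whether a genotype is 1 clone or several, or whether replicates are separate cultures, so differences between genotypes and between lines cannot be told apart and the spread between libraries may be technical.

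ATAC-seq reads open DNA through a transposase, which cuts where nucleosomes leave the DNA exposed, mostly at promoters, enhancers and insulator sites. Enhancers turn on and off between cell states more readily than promoters do. ALKBH5 removes N6-methyladenosine from RNA, a mark known in stem cells for controlling the lifetime of transcripts and, through RNA made at chromatin, the state of some repeats and enhancers. Intrinsically disordered regions are protein stretches without a fixed fold that often take part in loose, many-partner contacts. Coordinates are on GRCm39, and genes, sequence and motifs at the regions were not analysed here, because the gene tables at hand belong to an earlier build. The Alkbh5 locus and the stem cell marker loci were not examined for the same reason.

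The 6 mouse peak lists held 150680 to 193905 peaks, the WT lists being the longest. The height of a summit in tags and its local background were solved from the deposited fold and p. The lowest background of a library, its floor, was 1.01 to 1.26 tags, and the lowest height that could be called at that floor was 5 or 6 tags. Where all 6 libraries had a call, at 96989 autosomal regions, heights had a median of 31 tags in each del-cIDR library, 34 and 27 tags in KO and 33 and 36 tags in WT. Total reads are not analysed here, so depth is known only through these values. A region without a call may still be open below the calling limit.

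Regions of 1 genotype alone were fewest in del-cIDR. The 1108 regions stand beside 3034 autosomal regions called only in KO, 1.2% of all autosomal regions. WT alone had 6751, which is 2.66% of all autosomal regions. Calls in exactly 2 libraries were found at 29213 autosomal regions. The 8 mixed pairs, made of 1 del-cIDR library and 1 library of another genotype, held 630 to 2160 of them each. Those with a KO library held 630 to 1067, all fewer than 1108. Those with a WT library, whose lists are longer, held 1649 to 2160, all more than 1108. With lists cut to equal length the count in del-cIDR was 2103, against 4506 for KO alone and 2744 for WT alone. The mixed pairs then held 1146 to 1421 regions each, all fewer than 2103. Whether the del-cIDR pair stands above all mixed pairs therefore depends on the lengths of the lists. Without 1 of the WT libraries the del-cIDR count was 2241 (without replicate 1) or 2210 (without replicate 2). Where only 1 del-cIDR call was required it was 7211 without del-cIDR replicate 1 and 7527 without del-cIDR replicate 2. No test was made of these counts, since the calls chose the regions.

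Most del-cIDR-only regions were low and narrow. The median height was 10 tags in each del-cIDR library, with quartiles of 8 and 13 in both. That median lies at the 17.3 and 17.4 percentile of the autosomal peaks of the 2 lists, so most other peaks of the same libraries were higher. The mean of both libraries was under 10 tags in 506 regions, at least 20 in 66, at least 30 in 13 and at least 50 in 1. At 12 of the 1108 the deposited fold over local background reached the median of its list in both libraries. The median of the mean height was 10.0 tags for del-cIDR alone, 10.0 for KO alone and 10.5 for WT alone. A mean of at least 20 tags was reached by 5.96% of the regions of del-cIDR alone, 6.82% of those of KO alone and 9.97% of those of WT alone. For del-cIDR that share was 3.45% without del-cIDR replicate 1, where 1 call was enough, and 8.21% at a −log10 q of at least 5.

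**Figure D1:**
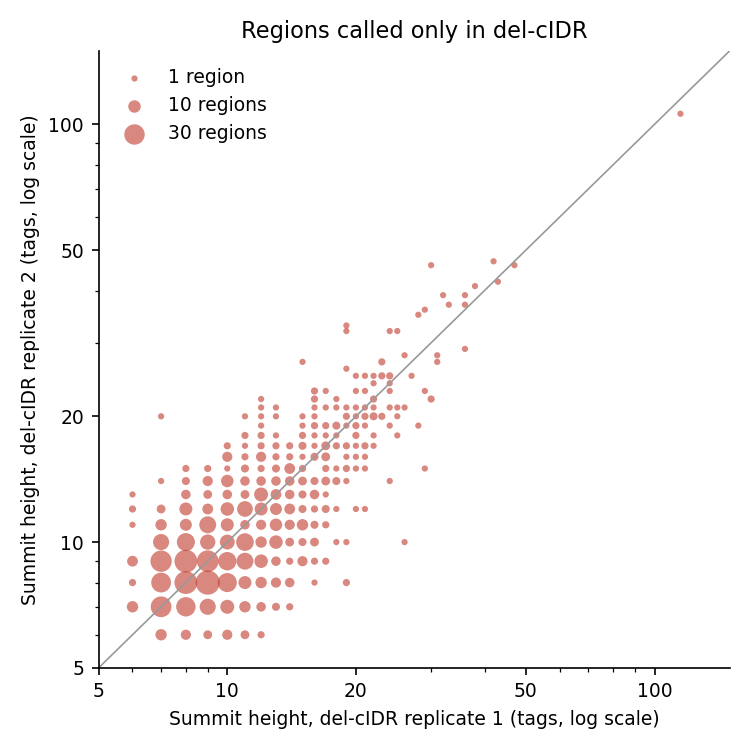
Summit height in tags of the 1108 autosomal regions called only in del-cIDR, in replicate 1 (horizontal) and replicate 2 (vertical), on log scales; the area of a point grows with the number of regions at that pair of heights and the line marks equal heights. Most regions lie near 10 tags in both libraries, and 1 region at 115 and 106 tags stands apart.

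**Figure D2:**
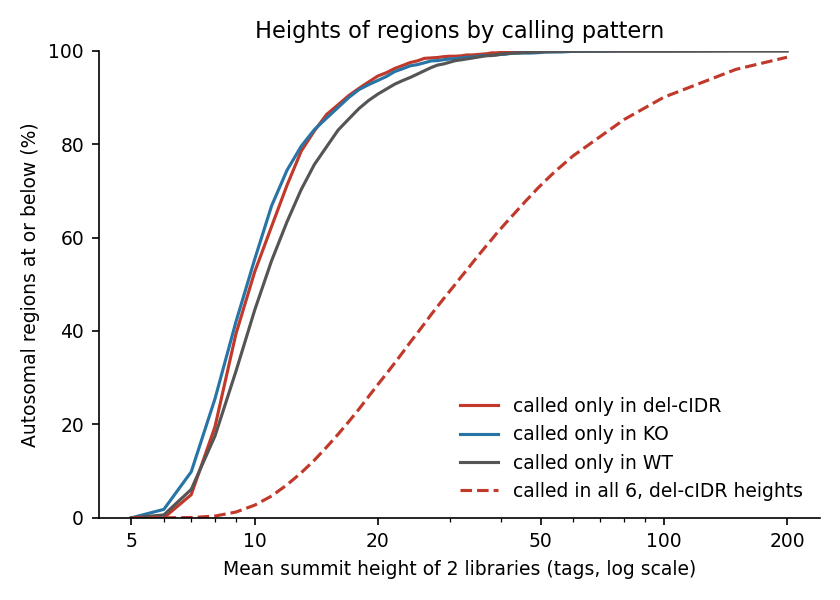
Cumulative percent of autosomal regions by mean summit height (tags, log scale) for regions called only in del-cIDR, only in KO and only in WT, and, dashed, for regions called in all 6 libraries with their del-cIDR heights. The curves of the 3 genotype-only sets lie close together, with medians of 10.0, 10.0 and 10.5 tags, and left of the regions called in all libraries.

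Agreement of the replicates at these weak regions is partly set by the rule, which requires peaks of both libraries in 1 merged region. Across the 1108 regions the log2 heights of the del-cIDR replicates had a Pearson r of 0.73, a description across regions that share 2 libraries and a common lower limit. The summits of both replicates were a median of 44 bp apart, and 607 regions (54.8%) had them within 50 bp. For regions called in all 6 libraries the del-cIDR summits were a median of 22 bp apart and 71.2% lay within 50 bp. For KO alone the replicate summits were a median of 45 bp apart and 54.3% lay within 50 bp. For WT alone these were 33 bp and 65.6%. The r between replicates was 0.74 for KO alone and 0.77 for WT alone. Overlap of narrow peaks limits how far apart the summits can lie. The merged region was a median of 239 bp wide, against 267 bp for KO alone, 209 bp for WT alone and 555 bp for regions called in all 6 libraries. In 466 regions (42.1%) at least 1 of the del-cIDR peaks was within 20 bp of the narrowest peak of its list, 123 and 125 bp. The share was 29.8% for KO alone and 42.0% for WT alone. A site narrower than the narrowest peak of a list would be missing from that list, even at the same height. That narrowest peak was narrower in KO replicate 1 and both WT libraries than in either del-cIDR library. In KO replicate 2 it was wider. The shares and widths of the genotypes are therefore not measured against a common minimum.

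The values just inside and just outside the rule were close. The least certain members had a lesser −log10 q of 1.35, 1.35 and 1.38, next to the limit at which the lists end, q = 0.05. On the other side, 6419 autosomal regions were called in del-cIDR replicate 1 alone and 6103 in replicate 2 alone, both with a median height of 9 tags. The highest of those reached 158 tags in replicate 1 and 160 in replicate 2, above any member, so height in 1 library did not ensure a call in the replicate. Both del-cIDR libraries together with KO replicate 1, and no other, had a further 412 regions, against 292 with KO replicate 2, 1133 with WT replicate 1 and 1102 with WT replicate 2. In that added library their median height was 11, 8, 10 and 12 tags, and their median height in the del-cIDR libraries was 10 to 12.

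How far the other genotypes must lie below del-cIDR was read from the calling limits. Heights were divided by the library's own median at regions called in all 6 libraries. The lesser of the 2 del-cIDR values was then divided by the highest value that could have gone uncalled in any KO or WT library at the same relative local background. This assumes a peak wide enough to be listed. The median of that ratio was 1.57, with quartiles of 1.39 and 1.92. It was at least 1 in 1102 regions and at least 1.5 in 735. It reached 2 in 180 of the 1108 regions (16.2%), 3 in 20 and 5 in 1. Much of this is set by the calling limits. At the floor a lesser height of 6 tags, the lowest that could be called in del-cIDR, already gave 1.31. The ratio is therefore a bound from the limits and not a measured difference. For regions called only in KO the ratio reached 2 in 21.0%, and for those called only in WT in 13.2%, each measured against the other genotypes. Limits and medians differ between libraries, and so does the lowest ratio that a call at the floor can give. These shares are therefore not on a common scale. A ratio of 2 means that a KO or WT library could hold up to the del-cIDR height divided by 2 and still have no call. The lists of most members therefore leave room for a KO or WT signal above that.

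The region that stood apart was chr15:27517044-27517417, 374 bp wide. It held 115 and 106 tags in del-cIDR replicates 1 and 2 and had no call in KO or WT. Its deposited fold was 28.6 and 25.7 and its −log10 q 132 and 116, and the summits of both replicates were 9 bp apart. At its local background, 2.73 times the floor, 9 or 10 tags would have been enough for a call in any KO or WT library, and its ratio to the limit was 11.5. Its height was at the 95.2 percentile of the autosomal peaks of del-cIDR replicate 1 and at the 94.4 percentile of replicate 2. This difference is a description, because the calls selected the region.

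Other regions around it were called in all genotypes. Within 50 kb there were 19 merged regions, the member included, of which 7 were called in all 6 libraries. The median of these 7 in log2 height relative to the library's median at regions called in all 6 was −0.25 and −0.10 in del-cIDR, −0.50 and −0.95 in KO and −0.29 and −0.17 in WT. The KO libraries were thus the lowest, and del-cIDR and WT overlapped. The centre of the nearest region lay 2.17 kb away; it was called in both del-cIDR libraries with 15 and 18 tags, in KO replicate 2 with 8 and in WT replicate 2 with 14. The tallest neighbour had 135 and 124 tags in del-cIDR, 68 and 52 in KO and 103 and 119 in WT. Absence from KO alone was seen nearby as well: chr15:27492919-27493151 had 34 and 36 tags in del-cIDR, no call in KO and 44 and 42 tags in WT. Low regions without a del-cIDR call were also near. At chr15:27545746-27545963 there were 8 and 7 tags in KO and 6 and 6 in WT. At chr15:27547385-27547566 only KO had calls, with 11 and 6 tags.

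**Figure D3:**
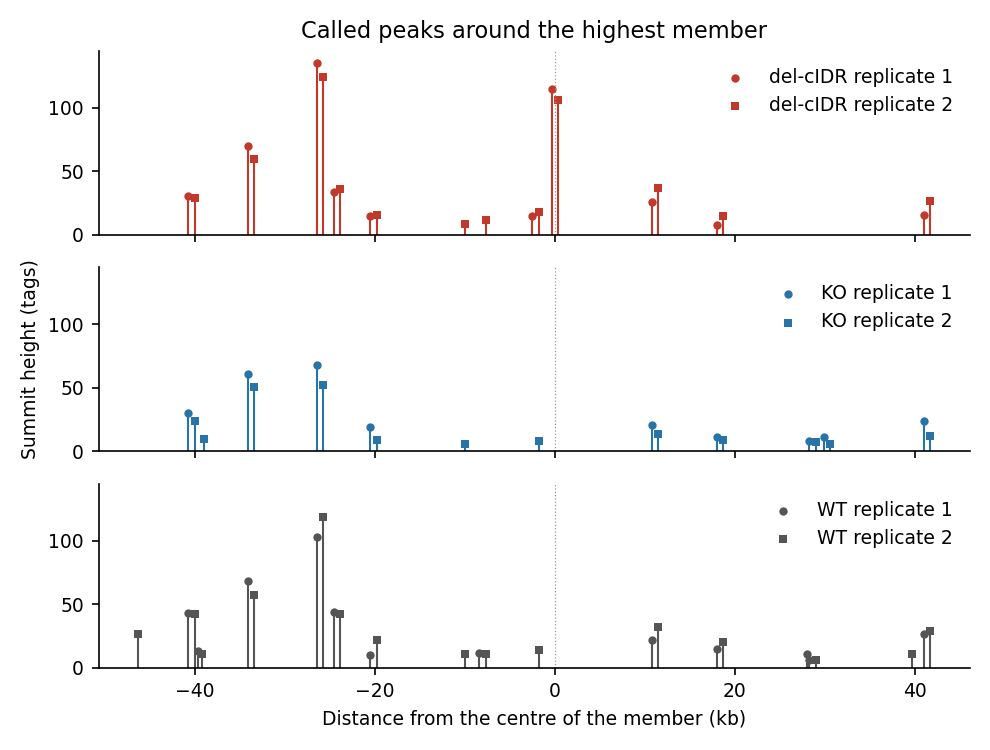
Summit heights in tags of the called peaks within 50 kb of the highest member, by distance from its centre in kb, for del-cIDR (top), KO (middle) and WT (bottom); circles are replicate 1 and squares replicate 2, and a missing marker means no call. At distance 0 both del-cIDR libraries have a tall peak, 115 and 106 tags, and no KO or WT library has one, while 7 regions around it are called in every library.

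The next highest members were of another kind. The 14 that followed had mean heights of 29.0 to 46.5 tags but a lesser fold of 2.13 to 4.94. All 14 had a local background of at least 4 times the library's floor, and up to 16.6 times. On chromosome 5, chr5:53709377-53709574 held 47 and 46 tags in del-cIDR with folds of 2.75 and 2.67. Its ratio to the limit was 1.48, and a region called in all 6 libraries began 1382 bp away. At chr4:98733534-98733693 there were 43 and 42 tags, 198 bp from a region called in all libraries. The clearest of the 14 by ratio to the limit was chr13:111686477-111686649, with 36 and 39 tags, folds of 4.95 and 4.94 and a ratio of 2.24. Of the 15 highest members, 9 lay within 1 kb of a region that KO or WT libraries had.

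Members with a higher local background had higher summits over the whole set. The 897 members whose background was below 2 times the floor had a median height of 9 tags in each replicate, and 4 of them reached a mean of 20. The 144 with a background of 2 to 4 times the floor had a median of 14 tags in each. The 67 at 4 times or more had medians of 23 and 22 tags, and 49 of them reached 20. The median of the lesser fold ran the other way, at 4.2 in the lowest class of background, 3.34 in the middle one and 2.85 in the highest. The distance to the nearest region called in all 6 libraries had medians of 7265, 1718 and 1125 bp from the lowest class to the highest. A high local background needs more tags for a call, so the lower edge of these heights is set by the calling rule.

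**Figure D4:**
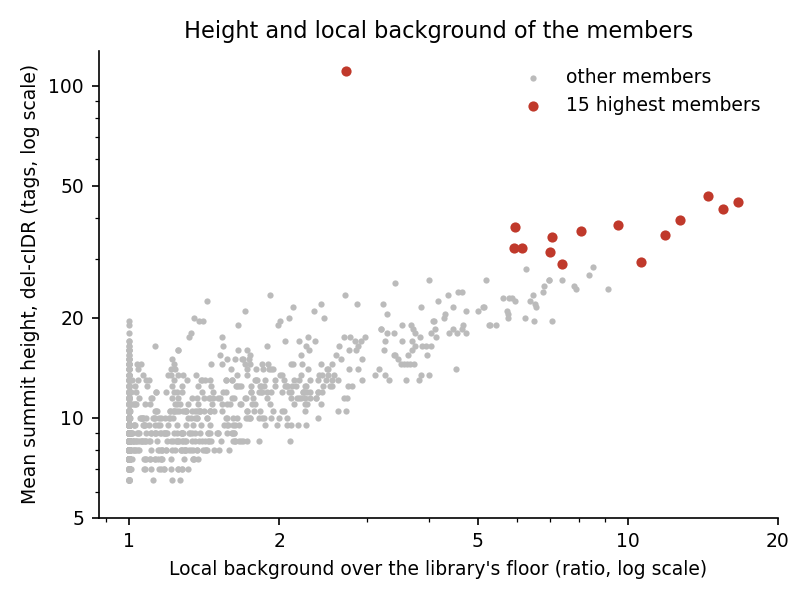
Mean summit height of each member over both del-cIDR libraries (tags, log scale) against its local background divided by the floor of the library (log scale); the 15 highest members are in red. Of these, 14 lie at 4 times the floor or more, and the member at 110.5 tags lies at 2.73 times.

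Ranked by the lesser fold, an order chosen after the values were seen, the leading members lay at varied distances from other open regions. Both folds were at least 7 in 23 members and at least 10 in 1, the chromosome 15 region. After it came chr7:113218933-113219387, with 17 tags in each del-cIDR library at the floor of the background and a fold of 8.40 in each. The next was chr6:86718291-86718490, with 25 and 20 tags, 380 bp from a region called in all 6 libraries. At chr17:44311622-44312000 there were 16 and 22 tags with summits 5 bp apart, and the nearest region of any KO or WT library was 17899 bp away. A region at chr4:58146591-58146958 held 16 and 23 tags. Each of these 4 had a ratio to the limit of 3.48 to 3.70.

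Width singled out other members. The 5 widest were 586 to 618 bp across and had mean heights of 8.5 to 14.5 tags. The widest, chr5:57619658-57620275, held 11 and 8 tags, and its peaks were 597 and 397 bp wide. At chr10:25784062-25784664 there were 14 and 15 tags with both folds at least 7 and a ratio to the limit of 3.05. Of the highest members, chr5:109698526-109699104 was nearly as wide, at 579 bp, with 42 and 47 tags and summits 495 bp apart. In 3 members a library had more than 1 peak.

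Distances to regions open in the other genotypes were measured for every member. A region called in at least 1 KO or WT library was a median of 1912 bp away. It lay within 200 bp of 9.12% of the members, within 1 kb of 353 (31.9%, Wilson 95% interval 29.2% to 34.7%, counting error only; 17.6% at a −log10 q of at least 5) and within 10 kb of 986 (89.0%). For regions called only in KO, the corresponding median distance to regions of the other genotypes was 2717 bp and the share within 1 kb 25.8%. For those called only in WT it was 2601 bp and 24.8%. The distances to the other genotypes are not measured against the same lists, since the WT lists are longest and count among the others for del-cIDR and KO, and the difference was not tested. Toward regions called in all 6 libraries, a set common to all, the medians were 5550 bp for del-cIDR alone, 7609 bp for KO alone and 6140 bp for WT alone. Within 100 kb on either side there was a median of 12, 10 and 12 regions called in all libraries.

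The members were scattered. The median distance between neighbouring members was 1200 kb, and 7 neighbouring pairs lay within 10 kb of each other. They fell in 831 windows of 1 Mb, of which 609 held 1 member and 7 held 4 or more. KO-only regions, which are 3034, were a median of 383 kb apart, and the 6751 WT-only regions 184 kb apart; these distances shrink with the number of regions.

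By chromosome the del-cIDR-only regions were rarest on chromosomes 6 and 8, and so were the WT-only regions. There were 27 on chromosome 6, or 3.93 per 1000 autosomal regions called in both del-cIDR libraries, and 33 on chromosome 8, or 5.03 per 1000. The other 17 autosomes ranged from 7.84 per 1000 on chromosome 11 to 12.6 on chromosome 3. KO-only regions were most frequent there, at 56.5 and 48.9 per 1000 regions of both KO libraries on chromosomes 6 and 8, against 17.1 to 29.9 on the others. WT-only regions stood at 35.4 and 33.3 per 1000 regions of both WT libraries, against 38.4 to 52.4 on the others. Chromosomes 6 and 8 held 5.42% of the members and 10.9% of the regions that both del-cIDR libraries had. No test was made, since the calls define both counts.

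Heights of the regions called in all 6 libraries, which the rule did not use, differed between genotypes on the same chromosomes. On chromosome 6 their mean log2 height relative to that same library median was −0.03 and −0.05 in del-cIDR, 0.37 and 0.33 in KO and −0.02 and 0.02 in WT. On chromosome 8 it was 0.06 and 0.05 in del-cIDR, 0.48 and 0.45 in KO and 0.14 and 0.17 in WT. In both cases the KO libraries lay above all others, and the del-cIDR libraries below both WT libraries. The KO libraries also lay above all others on chromosome 11, at 0.33 and 0.29. Values there were 0.25 and 0.23 in del-cIDR and 0.17 and 0.21 in WT. The genotype means of del-cIDR minus KO were −0.39 on chromosome 6 and −0.41 on chromosome 8, against −0.07 to 0.09 on the other 17. The part of these heights in the low counts was not tested.

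The other genotypes were also taken in turn, in both orders. Regions called in both del-cIDR libraries and no WT library numbered 93 on chromosome 6, 86 on chromosome 8 and 2120 on the other 17 autosomes. Per 1000 regions of del-cIDR these are 13.5, 13.1 and 19.4. KO libraries had no call in 29.0% of them on chromosome 6, 38.4% on chromosome 8 and 49.4% on the others. In the other order, calls in the del-cIDR pair with none in KO were found at 245 regions on chromosome 6, 218 on chromosome 8 and 8509 on the others, or 35.6, 33.2 and 77.7 per 1000. WT libraries had no call at 27 of the 245, at 33 of the 218 (15.1%) and at 1048 of the 8509 (12.3%). Absence from KO was thus less frequent on chromosomes 6 and 8 in either order, and how much the WT step takes away depends on the order.

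**Figure D5:**
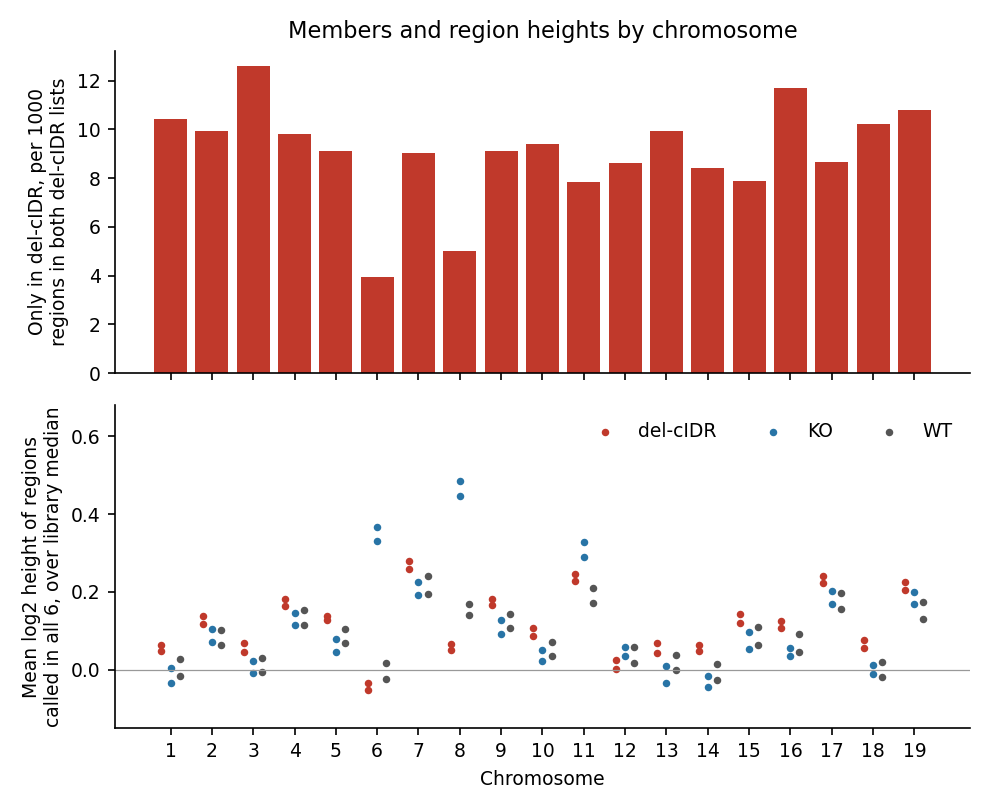
Top, regions called only in del-cIDR per 1000 regions called in both del-cIDR libraries, by autosome; bottom, mean log2 summit height of the regions called in all 6 libraries relative to the library's median at those regions on all autosomes, 1 point per library. The rate is 3.93 on chromosome 6 and 5.03 on chromosome 8 and at least 7.84 elsewhere. On these 2 chromosomes, and by less on chromosome 11, the KO points lie highest.

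Rates were also taken on parts of chromosomes 11 and 12, whose bounds were known from earlier results on these libraries. From 11 to 56 Mb on chromosome 11 there were 15 members, 6.81 per 1000, against 52 and 8.20 per 1000 on the rest of it. That difference is small for so few regions and was not tested. Mean relative heights in that stretch were 0.08 and 0.06 in del-cIDR, 0.44 and 0.41 in KO and −0.003 and 0.03 in WT. As the bounds of both stretches came from these same libraries, the heights inside them are a description and no independent support. On chromosome 12 beyond 52 Mb there were 21 members, 6.26 per 1000, against 24 and 12.9 per 1000 on the proximal part. The distal heights were −0.003 and −0.03 in del-cIDR, 0.08 and 0.06 in KO and 0.03 and 0.08 in WT, and the proximal ones were 0.08 and 0.06 in del-cIDR, 0.02 and −0.01 in KO and −0.007 and 0.02 in WT. On chromosome 12 del-cIDR was thus below both other genotypes beyond 52 Mb and above both on the proximal part. Being above both was not particular to places where members were frequent. On chromosome 15, at 7.90 members per 1000, del-cIDR minus WT was 0.05 and del-cIDR minus KO 0.06. On chromosome 3, at 12.6 per 1000, these were 0.04 and 0.05. On chromosomes 6 and 8 del-cIDR was below both. The part of these heights in the counts was not tested.

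Heights near the members, which the rule did not use, were close between genotypes. The 6531 regions called in all 6 libraries within 50 kb of a member had a median log2 relative height of 0.13 and 0.09 in del-cIDR, 0.08 and 0.05 in KO and 0.08 and 0.12 in WT. The del-cIDR values overlapped those of WT, with a difference of 0.012 (exact permutation test, two-sided, p = 0.667, n = 2 and 2). They lay above both KO values, with a difference of means of 0.044 (exact permutation test, two-sided, p = 0.333, the smallest that 2 against 2 libraries allow). Heights are whole tags, so each of these medians moves in steps of 1 tag, about 0.04 to 0.05 log2. Neither difference is clearly larger than 1 such step. Both differences changed sign, to −0.011 for WT and −0.027 for KO, when the lists were scaled without chromosomes 6, 8, 11 and 12. These values are also below 1 such step. With neighbours within 1 kb, 93 regions, del-cIDR minus KO was −0.021, against 0.073 within 10 kb and 0.044 within 200 kb. The 14626 regions called in all 6 libraries within 50 kb of KO-only regions were set beside the 6531. Their medians were 0.00 in each del-cIDR library, 0.12 and 0.10 in KO and 0.00 and 0.04 in WT. There the difference of del-cIDR minus KO was −0.11 (exact permutation test, two-sided, p = 0.333). KO-only regions were most frequent on chromosomes 6 and 8, where KO heights lay above all others. The part of those chromosomes in this difference was not tested. Near WT-only regions, 32531 such regions gave differences of 0.012 for del-cIDR minus WT and 0.025 for del-cIDR minus KO (exact permutation test, two-sided, p = 0.667 for each), so small positive differences were not particular to the members. Taking the difference region by region, the median near the members was 0.06 for del-cIDR minus WT and −0.005 for del-cIDR minus KO, so the sign against KO depends on the summary. Over all 96989 regions those medians were 0.05 and −0.03.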

How the data were processed

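ATAC-seq peak lists of 6 libraries, 2 per genotype by their titles, were analysed. The tools named, per the submitters' processing notes, are MACS2, BWA, fastp, featureCounts, Picard and SAMtools, with the build GRCm39; their versions, their settings and any shift of reads to the cut site were not given in the sources used here. The authors deposited 1 list per library, without pooling. Each deposited fold is a ratio of the summit's tag pileup to the local background, each significance is −log10 of a p or q of that peak in its own library, and the score deposited by the authors is a scaled −log10 q. These are the authors' values for single peaks. No list held a peak with q above 0.05.

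The members and lists were chosen with earlier results of these data known. Peaks on the spike-in sequence dm were dropped. Height and background were solved from fold = (height + 1) / (background + 1) and a Poisson p, giving whole heights within 0.1 tags in 100% of peaks. This solving, the merging and the exact test were tested on simulated data. Python 3.11.15, NumPy 2.4.6, pandas 2.3.3 and SciPy 1.17.1 were used. Named regions are the 15 highest and the 5 widest members; any others are marked as chosen after their values were seen. Alternatives were other overlaps, stricter q, equal list lengths, a 1 kb distance rule, other scales and leaving out each library. Planned gene lists, promoter shares, base composition and motifs were not analysed here, as no annotation of the build was used.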

Additional observations from a re-analysis of the deposited data

How the results depend on the processing

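The number of del-cIDR-only regions was 975 to 1089 with stricter q limits, joining at 50% of the narrower peak or joining within 200 bp, 755 with no KO or WT peak allowed within 1 kb, and 981 without chromosomes 6, 8 and 11 (chosen after seeing the data). It was 2103 with lists of equal length, where the WT lists lose most by construction, and 1400 to 7527 with 1 library left out, where fewer calls or absences are required. The difference of neighbouring heights between del-cIDR and WT was −0.0100 to 0.0331 log2 with 1 library left out, negative without del-cIDR replicate 1 and without WT replicate 1. That between del-cIDR and KO was 0.0227 to 0.0658. Scaling without chromosomes 6, 8, 11 and 12 turned both, to −0.0114 and −0.0274, and the cause was not tested. With neighbours within 1 kb of a member, del-cIDR minus KO was −0.0209. With 2 against 2 libraries no exact permutation p can fall below 0.333 in any setting. With the replicate number as a block the differences were 0.0115 (exact sign-flip permutation p = 1) and 0.0443 (exact p = 0.5, the smallest 2 pairs allow), and same-numbered libraries did not deviate together (correlations of −0.0116 to 0.00587). The share of members within 1 kb of a KO or WT region ranged from 17.6% at −log10 q of at least 5 to 37.6% with joining at 50% of the narrower peak. Promoter shares, base composition and motifs, and their other settings, were not run. Depth limits the members to regions of at least 6 tags in each del-cIDR library.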

Other observations

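Chromosome X, which the autosomal rule leaves out, held 66 regions called only in del-cIDR, or 22.5 per 1000 regions called in both del-cIDR libraries, against 9.01 per 1000 on the autosomes. Their median height was 11 tags in each del-cIDR library, and the highest had up to 46 and 52 tags. The regions of X called in all 6 libraries had a mean relative log2 height of 0.05 and 0.03 in del-cIDR, −0.17 and −0.19 in KO and −0.24 and −0.21 in WT, so both del-cIDR libraries lay above all others; the part of these heights in the rate was not tested.

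The fullest window of 1 Mb, found after the values were seen, was on chromosome 7 and held 6 members. The first began at 121181140 with 13 and 11 tags in del-cIDR, and the last at 121966114 with 10 and 12. The tallest, at chr7:121329602-121329763, had 15 and 17 tags and a ratio to the limit of 1.63. The lowest had 8 and 7 tags.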
